A study of Mus musculus with 27 samples.

Results

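The ribosome-bound mRNA of newly generated olfactory bulb neurons was set against a background immunoprecipitation from the same tissue. The comparison holds 5 of the 27 libraries of the study, chosen by their titles: 2 anti-HA immunoprecipitates labelled Neuron and 3 olfactory bulb immunoprecipitates labelled as controls without HA. The study covered the neurogenic lineage of the adult mouse brain, with stem cells and early neuroblasts taken in the subventricular zone and late neuroblasts and neurons in the olfactory bulb. Per the labels, the animals were male mice aged 8 to 12 weeks on a C57BL/6 background that received tamoxifen at 200 mg per kg by oral gavage. The labels name the lines DiCRY and TiCRY, with Cre under Dcx and Tlx. The sample codes of controls 1 and 2 name DiCRY, and those of control 3 and of the Neuron libraries read Dxc, which the labels do not explain and which is taken here as the Dcx line. DiCRY combines a tamoxifen-inducible Cre under Dcx, RiboTag (an allele that adds an HA tag to the ribosomal protein Rpl22 after recombination) and an eYFP reporter. Tag expression thus rests on the Dcx driver being active at the time of tamoxifen, and the labels do not say which allele the control animals lacked. Both Neuron libraries and control 3 carry the code 4wpi in their sample names, whereas controls 1 and 2 carry 3dpi. One label field of the Neuron libraries reads total mRNA and their protocol text is that of cell sorting, but their titles and sample codes name ribosome-bound material, and they were grouped by these. How many animals went into each immunoprecipitate is not stated.

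In the adult brain, stem cells lining the lateral ventricle give rise to neuroblasts that migrate to the olfactory bulb and mature there, mostly into GABAergic granule cells and to a lesser extent into periglomerular cells around the glomeruli. Rpl22 is a protein of the large ribosomal subunit, so an antibody against the HA tag pulls down the ribosomes of recombined cells with the mRNAs they carry, out of a homogenate of all cells of the tissue. The no-HA control measures the RNA that sticks to antibody and beads without any tag. A difference between the immunoprecipitates and the control is therefore an enrichment over this background, which need not hold RNAs in the proportions of the whole bulb. In bulk material, fewer cells of a type and less RNA per cell cannot be told apart.

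The Neuron libraries held 13316334 and 12793358 counts and the controls 7098892, 7330731 and 9120659. A count was seen for 19319 and 18128 genes in Neuron libraries 1 and 2 and for 21352 to 23766 genes in the controls, although the Neuron libraries were deeper. Spearman correlations over genes were 0.941 between the Neuron libraries, 0.926 to 0.980 among the controls and 0.852 to 0.920 between the groups. Control 3 stood apart from controls 1 and 2: its 10 most abundant genes took 14.3% of its counts against 7.37% and 7.13%, and it shares its second index sequence with Neuron library 1 but not with controls 1 and 2. Results that rest on control 3 are therefore also given without it, and libraries named as left out were left out singly. Levels are in CPM, the counts scaled to library size with TMM factors. Differences are log2(Neuron/control) ± SE, tested by quasi-likelihood in edgeR, and p-values were adjusted over all genes tested by the Benjamini-Hochberg method. Nothing in the labels says that libraries of a group came from separate animals, so the p-values measure only the spread between these libraries.

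Of 19066 genes tested, 2221 (11.6%) were higher in the Neuron immunoprecipitate and 3000 (15.7%) were lower at an adjusted p under 0.05 in edgeR. Higher genes were mostly abundant: among the 2917 genes with over 100 CPM in the higher group, 1300 were higher and 322 lower, with a median log2 difference of 0.62. Among the 5533 genes under 5 CPM the order was turned, with 40 higher, 936 lower and a median of -1.47. Of the 3000 lower genes, 765 had no count in either Neuron library. Of the 2221 higher genes, 2203 had both Neuron libraries above all controls, and of the 3000 lower genes, 2883 had both below, while over all genes tested 23.1% were separated upward and 29.5% downward. Without control 3, 1624 genes were higher and 2401 lower, and against control 3 alone, which has the time code of the Neuron libraries, 2439 and 2506. Without Neuron library 2 the counts dropped to 1075 and 1518. The median difference over all genes was -0.21 on the log2 scale, and of the called genes 42.5% were higher with TMM factors but 26.8% with library totals alone, under which the median over all genes was -0.40.

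**Figure D1:**
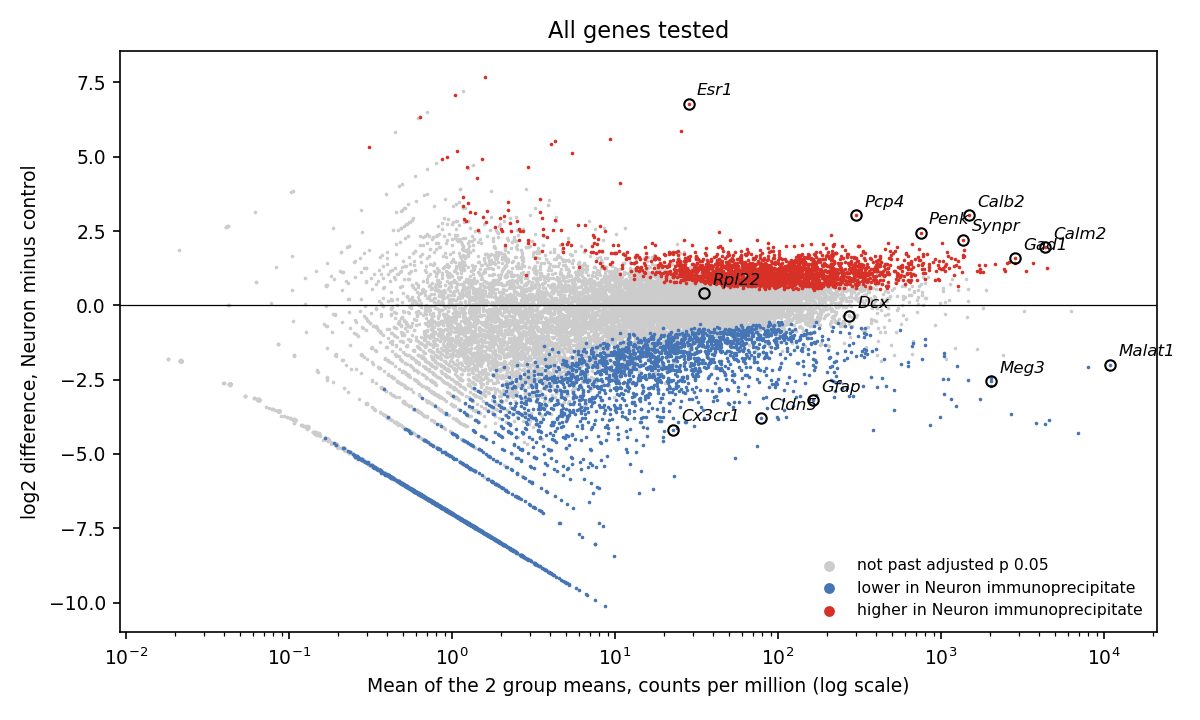
Log2 difference between Neuron immunoprecipitate and no-HA control (vertical axis) against the mean of the 2 group means in CPM (horizontal axis, log scale) for the 19066 genes tested. Red points (2221 genes) were higher and blue points (3000 genes) lower at an adjusted p under 0.05; the named genes are circled, and the straight line of blue points at the lower left holds genes with no count in the Neuron libraries, whose fitted differences depend on the prior count.

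The markers of bulb granule cells were among the strongest rises. Pcp4, a small calmodulin-binding protein abundant in granule cells, stood at 57.2, 61.7 and 76.3 CPM in controls 1 to 3 and 359.7 and 709.7 CPM in Neuron libraries 1 and 2. Both Neuron libraries were above every control although they differed between themselves, and the difference was 3.04 ± 0.26 (adjusted p = 1.6e-05 in edgeR). Penk, the precursor of the enkephalin opioid peptides, stood at 278, 276 and 143 CPM in controls 1 to 3 and 1131 and 1405 CPM in Neuron libraries 1 and 2, a difference of 2.45 ± 0.29 (adjusted p = 7.51e-05, edgeR). Synpr (synaptoporin), a synaptic vesicle protein of granule cells, gave 549, 598 and 309 CPM in controls 1 to 3 and 2017 and 2482 CPM in Neuron libraries 1 and 2. Its difference was 2.21 ± 0.29 (adjusted p = 0.000147, edgeR), and like Penk it had its lowest level in control 3 and no overlap between groups. Without control 3 the 3 differences were 3.16, 2.19 and 1.97, with adjusted p from 8.34e-06 to 9.81e-05 in edgeR. On the mouse assembly GRCm38.p6, RefSeq places Pcp4 on chromosome 16, 96467606 to 96525793, Penk on chromosome 4, 4133536 to 4138815 and Synpr on chromosome 14, 13284780 to 13615469.

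The size of the Pcp4 difference depends on how its reads were counted. Raw counts of Pcp4 came to 6.25, 5.38 and 7.88% of the deposited expected counts in controls 1 to 3 and to 9.68 and 13.5% in the Neuron libraries, while the median over 9666 genes with at least 100 expected counts in every library was 56.1 to 61.6% per library. With expected counts the Pcp4 difference was 2.22 (adjusted p = 3.41e-05, edgeR), a 4.65-fold in place of a 8.21-fold rise. Penk and Synpr gave 2.43 and 2.17 with expected counts, close to their values from raw counts. The cause was not tested.

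**Figure D2:**
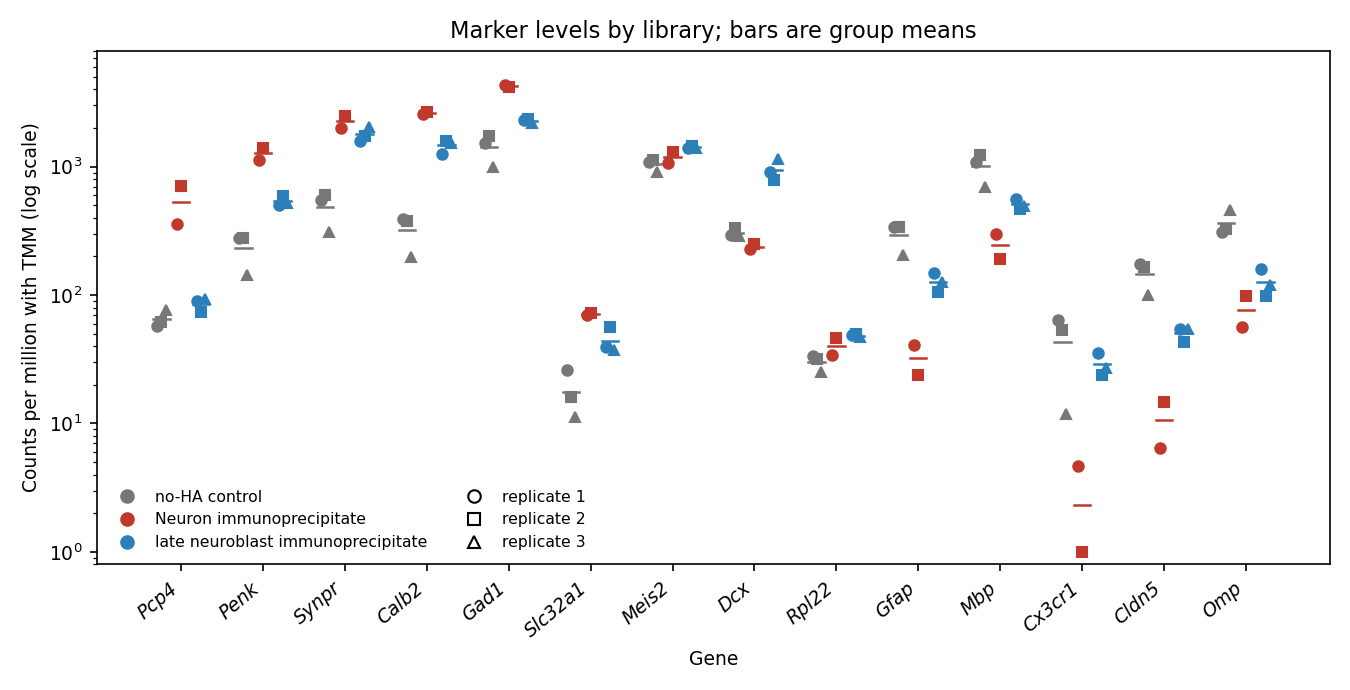
Levels of 14 marker genes in CPM (vertical axis, log scale) in each of the 3 no-HA controls (grey), the 2 Neuron immunoprecipitates (red) and the 3 late neuroblast immunoprecipitates (blue); symbols give the replicate, horizontal bars the group mean, and a value under 1 is drawn at 1. Both Neuron libraries lie above all controls for Pcp4, Penk, Synpr, Calb2, Gad1 and Slc32a1 and below them for Gfap, Mbp, Cx3cr1, Cldn5 and Omp.

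Of the 6 defining markers of bulb interneurons (Pcp4, Penk, Synpr, Gad1, Slc32a1 and Meis2), all but Meis2 rose. In the list of bulb interneuron identity genes, 10 of 31 genes tested rose, against 11.6% of all genes, and none fell. By edgeR at an unadjusted p under 0.05, 16 were higher and 0 lower. The list median was 0.62 against -0.21 over all genes, and without control 3, 8 of the members tested were higher, against control 3 alone 12. Calb2 (calretinin), the calcium-binding protein of a granule cell and periglomerular subset, stood at 391, 377 and 197 CPM in controls 1 to 3 and 2573 and 2685 CPM in Neuron libraries 1 and 2. Its difference was 3.03 ± 0.57 (adjusted p = 0.00179, edgeR), and both Neuron libraries lay far above the highest control. Scgn (secretagogin), another calcium sensor of bulb interneurons, rose from 68.3 ± 30.0 CPM (SD, n = 3) to 355 ± 46.6 CPM (SD, n = 2), a log2 difference of 2.38 ± 0.43 (adjusted p = 0.00166, edgeR). Among the transcription factors of the list, Sp8 and Sp9 rose by 1.64 and 1.29, whereas Meis2 stood at 1091, 1122 and 912 CPM in controls 1 to 3 and 1074 and 1308 CPM in Neuron libraries 1 and 2 and did not pass the test (0.19 ± 0.23, adjusted p = 0.559, edgeR). The differences of Dlx1, Dlx2 and Dlx5 were 0.72, 0.78 and 0.98 with adjusted p from 0.053 to 0.167 in edgeR, and that of Dlx6 was -0.36. Apart from Meis2, these factors were chosen for mention after their values were seen, as were the further list members given below beside those of the naming rule.

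**Figure D3:**
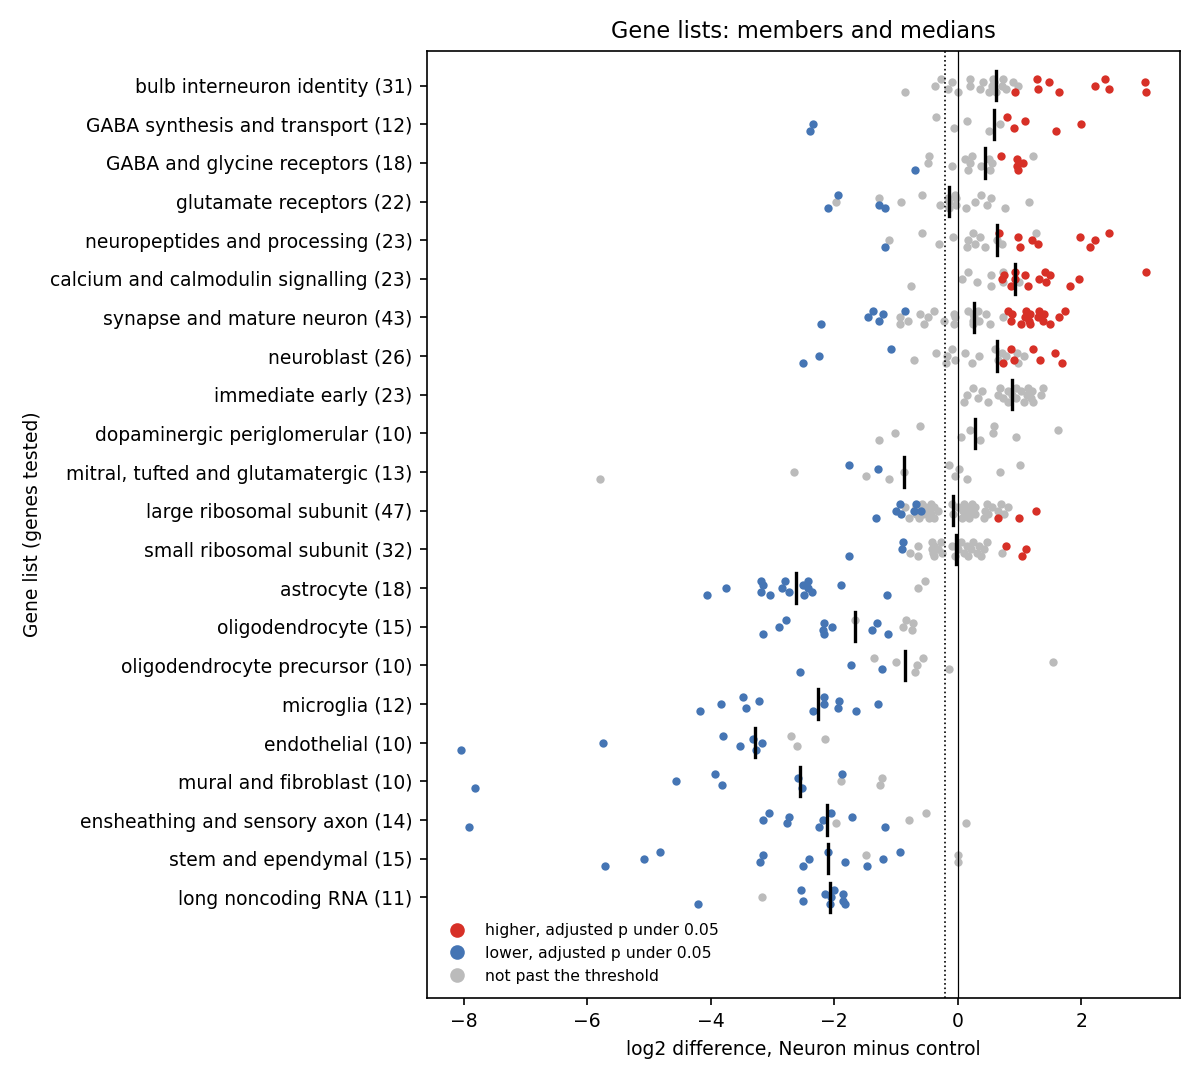
Log2 difference between Neuron immunoprecipitate and control (horizontal axis) for every tested member of 22 gene lists, with the number of genes tested in brackets; red and blue points passed an adjusted p under 0.05, the black bar is the list median and the dotted line the median over all genes (-0.21). The neuronal lists at the top have medians from -0.88 to 0.92 and the lists of other cell types from -3.29 to -0.85.

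In the list of GABA synthesis and transport, 5 of the 12 genes tested were higher, against 11.6% of all genes, and 2 lower, against 15.7%, with a median of 0.59. Gad1, which makes GABA from glutamate, stood at 1525, 1724 and 986 CPM in controls 1 to 3 and 4307 and 4173 CPM in Neuron libraries 1 and 2. The difference was 1.59 ± 0.25 (adjusted p = 0.000516, edgeR), with the Neuron libraries above every control. Slc32a1, the vesicular GABA transporter, rose by 2.0 ± 0.35 (adjusted p = 0.00101, edgeR), from 17.7 ± 7.44 CPM (SD, n = 3) to 70.8 ± 1.94 CPM (SD, n = 2). Slc12a5 (the chloride exporter KCC2), Slc38a1 (a glutamine transporter) and Gad2 rose by 1.09, 0.90 and 0.79. The astrocytic GABA transporter gene Slc6a11 fell by 2.35 ± 0.42 and Glul, the glutamine synthetase of astrocytes, fell by 2.39 ± 0.48. Without Neuron library 1, and likewise without Neuron library 2, 3 members were higher.

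Neuropeptide genes and the secretory granule genes that go with them included 9 of 23 that rose, against 11.6% of all genes, and 1 that fell, against 15.7%, with a median of 0.64. Tac1, the precursor of substance P, stood at 11.0, 11.8 and 5.49 CPM in controls 1 to 3 and 33.8 and 53.2 CPM in Neuron libraries 1 and 2, and its difference was 2.21 ± 0.33 (adjusted p = 0.000358, edgeR). Pdyn, the dynorphin precursor, was at low levels: 2.09, 3.58 and 0.108 CPM in the controls and 7.55 and 9.13 CPM in the Neuron libraries, a difference of 2.15 ± 0.53 that was 2.99 without control 2 and 1.55 without control 3. Scg5, a chaperone of the proprotein convertase Pcsk2, rose by 1.98 ± 0.34 (adjusted p = 0.000874, edgeR), and Pcsk2 itself by 0.66. Scg2, Pcsk1n and Chgb, all of dense-core granules, rose by 1.21, 1.0 and 0.97. Sst (somatostatin) rose by 1.29 ± 0.46 although the groups overlapped, with 9.67, 8.95 and 6.35 CPM in the controls and 32.6 and 8.11 CPM in the Neuron libraries. Npy fell by 1.18 ± 0.27 (adjusted p = 0.00606, edgeR), with 67.4 and 66.0 CPM against 145, 189 and 118 CPM. Without control 3, 6 members were higher and the list median was 0.28, and without Neuron library 1 they were 5 and 0.30. Npy was the member that fell, and without Neuron library 2 none fell.

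The 4 genes of the opioid receptor list stood at low levels, between 0.895 CPM (Oprk1 in control 2) and 48.7 CPM (Oprl1 in Neuron library 1). Oprd1, Oprl1, Oprm1 and Oprk1 had differences of 0.69, 0.50, 0.15 and -1.78. None of the 4 passed the test in edgeR; at an unadjusted p under 0.05 there was 1 (Oprk1, lower), and DESeq2 called 0 higher and 1 lower. Oprk1 passed as lower without control 2 (-2.30, adjusted p = 0.015, edgeR) and against control 3 alone (-2.85, adjusted p = 0.00434, edgeR), and without control 3 it gave -0.54 (adjusted p = 0.621, edgeR). It stood at 5.23, 0.895 and 15.4 CPM in controls 1 to 3 and 0.903 and 3.30 CPM in Neuron libraries 1 and 2, with overlap between the groups, and gave -1.13 without Neuron library 1 and -2.98 without Neuron library 2. The sign of Oprm1 turned with library totals as the scaling and without Neuron library 2, and that of Oprl1 without Neuron library 1.

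Calcium and calmodulin signalling was the list with the highest share of rises among the 25 lists, 14 of 23 against 11.6% of all genes, with 0 falls in edgeR (at an unadjusted p under 0.05, 19 were higher and 1 lower; DESeq2 called 1 lower) and a median of 0.92. Calm2, which encodes calmodulin, the calcium sensor that Pcp4 binds, stood at 1819.9, 2331 and 1169 CPM in controls 1 to 3 and 5503 and 8303 CPM in Neuron libraries 1 and 2. The difference was 1.96 ± 0.30 (adjusted p = 0.000448, edgeR) and no control reached either Neuron library. Calm3, another calmodulin gene, gave 0.98 ± 0.36 (adjusted p = 0.0534, edgeR). Ppp3r1, Ppp3ca and Ppp3cb, subunits of the calmodulin-dependent phosphatase calcineurin, rose by 1.82, 1.09 and 0.92. Of the calmodulin kinases, Camk2b and Camk4 rose by 1.31 and 0.92, and Camk2a was at 0.72 ± 0.32 (adjusted p = 0.1, edgeR). Nrgn (neurogranin), which holds calmodulin at postsynaptic sites, rose by 1.5 ± 0.33, a call that was lost without Neuron library 2 (adjusted p = 0.0782, edgeR). Without control 3, 13 members were higher, and without Neuron library 2, 9. Pcp4 belongs both to this list and to that of bulb interneuron identity, so their counts are not independent. In the late neuroblast immunoprecipitate 7 of the 23 rose over the same controls, against 7.0% of all genes. Tested directly, 1 of the 23 was higher and 1 lower in the Neuron immunoprecipitate, against 0.378 and 3.75% of all genes.

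Receptor genes for inhibitory and excitatory transmitters were counted separately, and the difference between their counts was not tested. Of 18 GABA and glycine receptor genes, 5 rose and 1 fell, with a median of 0.43. Of 22 glutamate receptor genes 0 rose and 4 fell in edgeR, where over all genes 11.6% were higher and 15.7% lower, with a median of -0.14 (at an unadjusted p under 0.05, 2 were higher and 8 lower; DESeq2 called 0 higher and 8 lower). Glrb, the glycine receptor beta subunit, stood at 115, 149 and 89.6 CPM in controls 1 to 3 and 228 and 261 CPM in Neuron libraries 1 and 2 and rose by 1.05 ± 0.24 (adjusted p = 0.00493, edgeR). The GABA-A receptor subunits Gabra5 and Gabrd rose by 0.97 and 0.96. The calls of Gabra5 and Gabrd were lost without Neuron library 1 (adjusted p = 0.0723 and 0.0899, edgeR). Without Neuron library 1, and likewise without Neuron library 2, 3 of the receptor genes were higher. Gabrb1, another subunit, fell by 0.69 ± 0.21 (adjusted p = 0.022, edgeR).

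Among the glutamate receptor genes, Grin3a, an NMDA receptor subunit, fell from 55.4, 67.6 and 36.9 CPM in the controls to 16.3 and 8.53 CPM, a difference of -2.10 ± 0.44 (adjusted p = 0.00356, edgeR). Grin2c, Grik1 and Gria4 fell by 1.93, 1.28 and 1.18. Each of these 3 calls was lost on leaving out 1 library: Gria4 without Neuron library 1 (adjusted p = 0.0681, edgeR), Grin2c without Neuron library 1, Neuron library 2 or control 3 (0.0563 to 0.0798), and Grik1 without Neuron library 1, Neuron library 2, control 1 or control 3 (0.0511 to 0.0956). Gria2, which makes AMPA receptors impermeable to calcium, had its highest level in control 3 (866, 759.6 and 1862 CPM against 1056 and 852 CPM) and a difference of -0.28 that did not pass.

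Of 43 genes of the synapse and of mature neurons, 16 rose, against 11.6% of all genes, and 6 fell, against 15.7%, with a median of 0.26. With the 5 libraries alone, 4 rose and 2 fell, where 592 of 17588 genes were higher and 1204 lower. Without control 3, 16 of the list rose and 5 fell, and without Neuron library 2, 11 and 1. Vesicle and fusion genes were among the rises: Rab3a, a small GTPase of synaptic vesicles, stood at 434, 509 and 192 CPM in controls 1 to 3 and 1247 and 1274 CPM in Neuron libraries 1 and 2, a difference of 1.74 ± 0.32 (adjusted p = 0.00157, edgeR). Vamp2, the vesicle SNARE, rose by 1.65 ± 0.24 (adjusted p = 0.000313, edgeR), and its partner Snap25 by 1.15. Syn1 and Syn2, which tether vesicles, rose by 1.09 and 1.38. Syn3 was lower by 2.21 ± 0.24, but with expected counts it gave -1.14 (adjusted p = 0.0566, edgeR). The active zone scaffold Pclo, the postsynaptic scaffold Shank3, the calcium channel gene Cacna1e and the neurofilament genes Nefm and Nefh fell by 1.27, 1.45, 0.85, 1.21 and 1.38.

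With all 3 controls, no marker gene of the other neuron classes of the bulb passed the test as higher. In the dopaminergic periglomerular list 0 of 10 genes passed in either direction in edgeR, against 3 higher and 1 lower at an unadjusted p under 0.05 and 1 higher and 1 lower by DESeq2. Th, the rate-limiting enzyme of dopamine synthesis, stood at 282, 329.9 and 226 CPM in controls 1 to 3 and 427 and 405 CPM in Neuron libraries 1 and 2, above every control but with a difference of 0.58 ± 0.26 (adjusted p = 0.103, edgeR). Of 13 genes of mitral, tufted and other glutamatergic neurons, 0 rose and 2 fell in edgeR, against 15.7% lower over all genes, with a median of -0.88 (at an unadjusted p under 0.05, 0 higher and 3 lower; DESeq2 called 0 higher and 1 lower). Of their defining markers, Cdhr1 and Tbx21 gave 0.15 ± 0.63 and 1.0 ± 0.61 (adjusted p = 0.882 and 0.243, edgeR), and Eomes and Slc17a6 gave -0.88 ± 0.63 and -1.49 ± 0.82 (adjusted p = 0.319 and 0.185, edgeR). Tbx21 stood at 24.0, 27.6 and 3.77 CPM in controls 1 to 3 and 41.8 and 32.2 CPM in Neuron libraries 1 and 2. Against control 3 alone it passed as higher, at 3.31 (adjusted p = 0.00702, edgeR), and with the second index as a term at 3.44 (adjusted p = 0.00339, edgeR). The direction of Cdhr1 turned with library totals as the scaling and without Neuron library 1. Doc2g, a gene of mitral cells, stood at 480.2, 526 and 225 CPM in controls 1 to 3 and 137 and 106 CPM in Neuron libraries 1 and 2. It was lower by 1.75 ± 0.54 (adjusted p = 0.0247, edgeR). This call was lost without control 1, control 2, Neuron library 1 or Neuron library 2 (adjusted p from 0.0578 to 0.143, edgeR), and that of Nrp1 (-1.30) without Neuron library 1 or Neuron library 2. Without Neuron library 2, 1 gene of this list was higher and 0 lower.

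Of 26 neuroblast genes tested, 7 rose over the control and 3 fell, against 11.6 and 15.7% of all genes, with a median of 0.63; without control 3, 6 rose and 2 fell, without Neuron library 1, 4 and 2, and without Neuron library 2, 2 and 0, and against control 3 alone 12 and 1. Dcx, the microtubule protein of migrating neuroblasts whose regulatory sequence drives the Cre here, stood at 294, 334 and 287 CPM in controls 1 to 3 and 227 and 249 CPM in Neuron libraries 1 and 2. Both Neuron libraries lay below the 3 controls, but the difference did not pass (-0.36 ± 0.34, adjusted p = 0.464, edgeR). Sox11, a transcription factor of immature neurons, gave -0.05 ± 0.41 (adjusted p = 0.944, edgeR), with a sign that turned in 5 of the alternatives run. Cd24a, a surface glycoprotein of neuroblasts, gave 1.06 ± 0.41 (adjusted p = 0.0642, edgeR). It passed without control 1 (1.39, adjusted p = 0.0395, edgeR) and against control 3 alone (2.07, adjusted p = 0.0142, edgeR). Among the 7 that rose were Marcksl1, the neuronal tubulin gene Tubb3, the microtubule regulator Stmn1 and Basp1, by 1.68, 1.57, 1.32 and 1.21, Tubb3 not without Neuron library 1 (adjusted p = 0.0615, edgeR). Tubb3 had its lowest level in control 3 (373, 347 and 92.9 CPM in the controls, 903 and 705 CPM in the Neuron libraries). The 3 lower genes were Robo1 and Dcc, receptors for guidance cues, and St8sia2, a polysialic acid synthase, with -1.08, -2.25 and -2.5. The call of Dcc was lost without control 3 (adjusted p = 0.0531, edgeR) or Neuron library 2, and that of St8sia2 without control 2 or Neuron library 2 (0.127 and 0.172). Without Neuron library 1 these 2 differences were -4.29 and -8.51; Neuron libraries 1 and 2 held 6.24 and 0.845 CPM of Dcc and 2.05 and 0 CPM of St8sia2.

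The late neuroblast immunoprecipitate was made from the same tissue and carries the code 3dpi. Its driver is the same only if the code Dxc of the Neuron libraries means Dcx, as taken above. The late neuroblast immunoprecipitate has the same 3 controls, so the enrichments share their background. In it, 21 of the 26 neuroblast genes rose over the control (15 to 21 on leaving out 1 library) and 0 fell, with a median of 1.80, where over all genes 7.0% were higher and 3.06% lower. Tested directly, the Neuron immunoprecipitate was lower than the late neuroblast immunoprecipitate for 11 of the 26 and higher for 0 in edgeR, with a median of -1.09; over all genes, 0.378% were higher (72) and 3.75% lower (715). Of the 26, 5 were lower without Neuron library 2 and 9 to 14 on leaving out any other library of the 3 groups. Over all genes, without Neuron library 2 the counts were 14 and 373, without late neuroblast libraries 1, 2 and 3 in turn 6 and 341, 14 and 418, and 21 and 455, without Neuron library 1, 108 and 1091, and without control 3, which enters here only through the filter, the scaling and the shared spread, 211 and 985. Dcx stood at 902, 789.7 and 1156 CPM in the late neuroblast libraries, all above both Neuron libraries, and the difference was -2.0 ± 0.37 (adjusted p = 0.00571, edgeR). Sox11 and Cd24a differed by -2.65 ± 0.46 and -2.16 ± 0.45 (adjusted p = 0.00385 and 0.0117, edgeR), Cd24a not without Neuron library 2 (adjusted p = 0.114, edgeR). Pcp4 went the other way, with the limit of its raw counts given above. It stood at 90.0, 74.1 and 93.7 CPM in the late neuroblast libraries and differed by 2.64 ± 0.26 (adjusted p = 0.000156, edgeR). Penk stood at 501, 588 and 524 CPM there, below both Neuron libraries, a difference of 1.24 ± 0.29 (adjusted p = 0.0214, edgeR) that did not pass without Neuron library 2 or without any 1 of the late neuroblast libraries (adjusted p from 0.0599 to 0.173, edgeR). For Synpr the difference was 0.33 ± 0.29 (adjusted p = 0.597, edgeR), with 1589.9, 1737 and 2028 CPM in the late neuroblast libraries. Gabrd, which encodes the delta subunit of extrasynaptic GABA-A receptors, was higher in the Neuron immunoprecipitate by 1.18 ± 0.27 (adjusted p = 0.0193, edgeR), but not without Neuron library 1 or late neuroblast library 1 or 3 (adjusted p from 0.0723 to 0.083, edgeR). The bulb interneuron identity genes were also high in the late neuroblast immunoprecipitate: 15 of 31 rose there over the same controls, with a median of 1.07, beside 10 and 0.62 in the Neuron immunoprecipitate. Tested directly, 2 of the 31 were higher and 2 lower in the Neuron immunoprecipitate, with a median of -0.19. Depth differs between these groups, at 7811204 to 9557093 counts in the late neuroblast libraries, and their second index sequence is that of controls 1 and 2; the part of these in the differences was not tested.

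**Figure D4:**
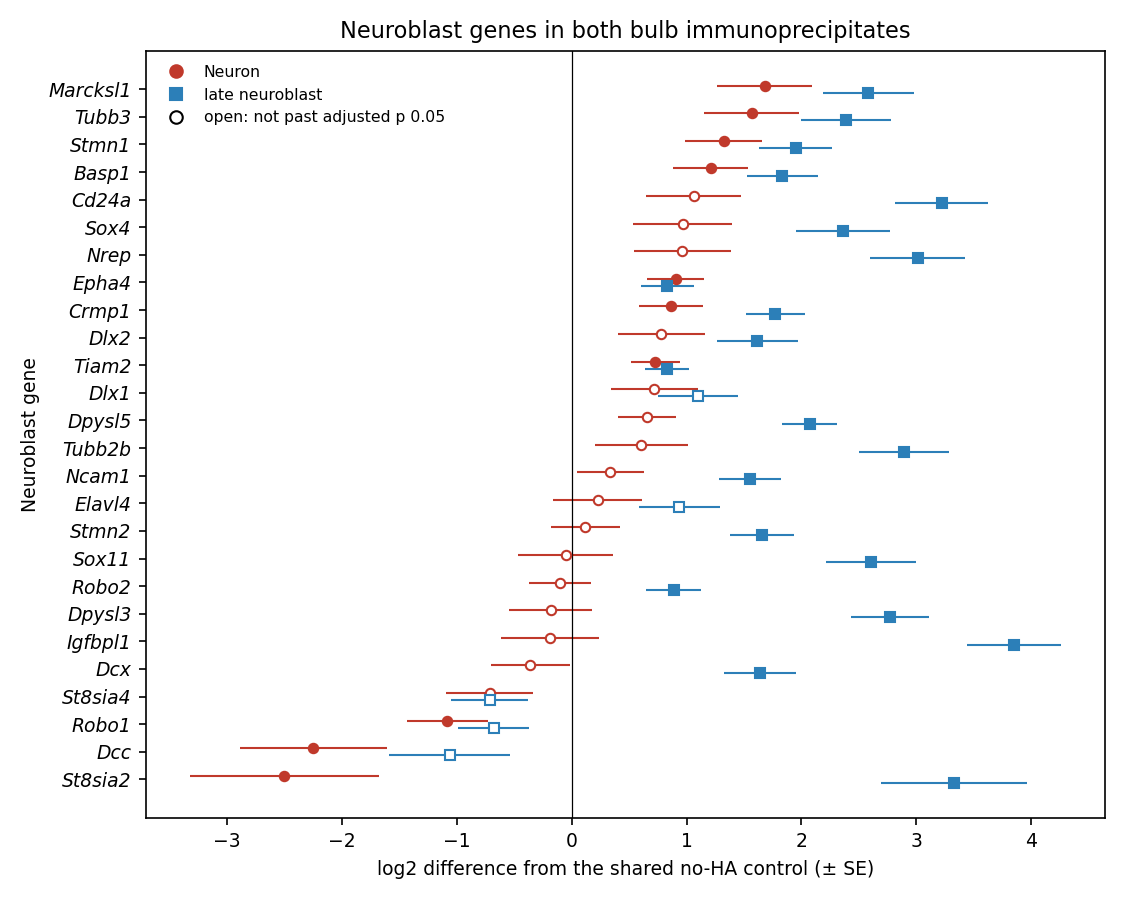
Log2 difference from the shared no-HA control, with SE, for the 26 neuroblast genes tested in the Neuron immunoprecipitate (red circles) and the late neuroblast immunoprecipitate (blue squares); filled symbols passed an adjusted p under 0.05. In the Neuron immunoprecipitate 7 genes rose and 3 fell, and in the late neuroblast immunoprecipitate 21 rose and 0 fell; both use the same 3 controls.

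Immediate early genes, which neurons induce within minutes of activity, differed more between the Neuron libraries than between the groups. All 23 genes tested had a positive difference (0.0928 to 1.38, median 0.88), but 0 passed in edgeR in either direction (at an unadjusted p under 0.05, 3 higher and 0 lower; 0 by DESeq2). Fos stood at 219, 428 and 76.9 CPM in controls 1 to 3 and 999 and 122 CPM in Neuron libraries 1 and 2. Neuron library 1 was thus the highest of the 5 and Neuron library 2 lay below controls 1 and 2. Npas4 stood at 70.2, 92.8 and 47.7 CPM in the controls and 149 and 7.10 CPM in the Neuron libraries. Over the list, Neuron library 1 was above Neuron library 2 for 19 of 23 genes, by a median ratio of 3.66, and was the highest of the 5 libraries for 18, while over all genes tested Neuron library 1 was above Neuron library 2 for 9412 of 19066. Neuron library 2 was below the control mean for 13, and control 3 was the lowest control for 20. Without Neuron library 1 the list median was -0.42, with 1 gene higher and 1 lower, and without Neuron library 2 it was 1.34, with 5 higher. With no filter on low counts, 9 of the 23 passed as higher, and against control 3 alone 6.

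**Figure D5:**
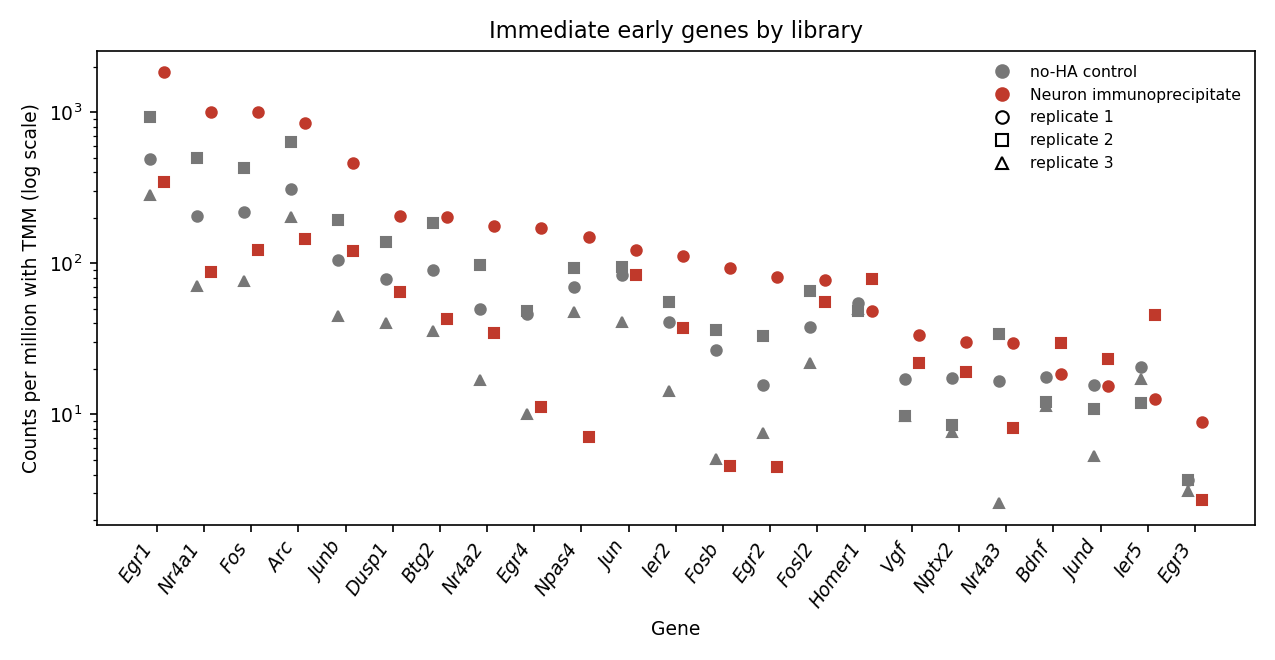
Levels of the 23 immediate early genes tested in CPM (vertical axis, log scale) in each control (grey) and Neuron library (red), with symbols for the replicate. Neuron library 1 (red circles) is the highest of the 5 libraries for 18 genes and Neuron library 2 (red squares) is below the control mean for 13.

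Most markers of the other cell types of the bulb were depleted in the Neuron immunoprecipitate. Over 9 lists with 110 genes tested, 77 were lower and 0 higher in edgeR (84 lower and 0 higher at an unadjusted p under 0.05; DESeq2 called 0 higher in each list), against 15.7% lower over all genes, and the median was -2.18. Control 3 was the lowest control for 80 of the 110. Against control 3 alone, 5 of 12 microglia, 6 of 15 oligodendrocyte, 6 of 15 stem and ependymal and 14 of 18 astrocyte genes were lower. Astrocyte genes fell in 16 of 18 cases. Gfap, the astrocyte intermediate filament, stood at 339, 339 and 206 CPM in controls 1 to 3 and 40.7 and 24.0 CPM in Neuron libraries 1 and 2, a difference of -3.19 ± 0.33 (adjusted p = 3.52e-05, edgeR), with all Neuron levels under all controls. The water channel gene Aqp4 and the folate enzyme gene Aldh1l1 fell by 3.75 ± 0.50 and 4.05 ± 0.38. The summed level of the list was 4786 to 11635 CPM in the controls and 1812 and 2458 CPM in the Neuron libraries. Sparcl1 and Clu were the astrocyte genes that did not pass, at -0.65 and -0.52, and without control 3 all 18 were lower.

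Of 15 oligodendrocyte genes, 10 fell, where 15.7% of all genes were lower. The myelin genes Mbp and Mog fell by 2.04 ± 0.30 and 1.30 ± 0.33, Mog not without Neuron library 2 (adjusted p = 0.115, edgeR). Mbp still stood at 299 and 191 CPM in the Neuron libraries, against 1084, 1240.5 and 699.6 CPM in the controls. Of 10 genes of oligodendrocyte precursors, 3 fell, against the same 15.7%. The defining markers of these precursors, Pdgfra and Cspg4, did not pass (-1.0 ± 0.38 and -1.36 ± 0.56, adjusted p = 0.0618 and 0.081, edgeR). Pdgfra passed without control 3 (-1.16, adjusted p = 0.0494, edgeR). Cspg4 stood at 14.5, 14.7 and 17.6 CPM in controls 1 to 3 and 10.7 and 1.35 CPM in Neuron libraries 1 and 2, and its size moved with each of the latter: -3.51 without Neuron library 1, where it passed (adjusted p = 0.000659, edgeR), and -0.53 without Neuron library 2. Of the 3 that fell, Enpp6 gave -2.55 (-3.54 without Neuron library 1), while the calls of Gpr17 (-1.74) and Olig1 (-1.23) were lost without control 1 or Neuron library 2 (adjusted p from 0.0603 to 0.184, edgeR). Gpr17 gave -2.62 without Neuron library 1.

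All 12 microglia genes tested fell, where 15.7% of all genes were lower. Cx3cr1, the fractalkine receptor of microglia, stood at 63.6, 53.4 and 11.8 CPM in controls 1 to 3 and 4.68 and 0 CPM in Neuron libraries 1 and 2, a difference of -4.18 ± 0.88 (adjusted p = 0.00337, edgeR). P2ry12 and the complement gene C1qa fell by 3.47 ± 0.83 and 2.17 ± 0.53, C1qa not without Neuron library 1 (adjusted p = 0.0614, edgeR). Of 10 endothelial genes 7 fell: Cldn5, a tight junction gene of the blood-brain barrier, dropped from 174, 167 and 99.8 CPM to 6.40 and 14.7 CPM (-3.80 ± 0.42, adjusted p = 4.5e-05, edgeR), and Flt1 and Pecam1 fell by 3.52 ± 0.36 and 3.27 ± 0.67. Of 10 mural and fibroblast genes 7 fell, among them Pdgfrb, the pericyte receptor, by 3.92 ± 0.78. These genes had few counts in the Neuron libraries, and the sizes moved with each of them: without Neuron library 1, Cx3cr1, P2ry12, Pecam1 and Pdgfrb gave -11.37, -10.99, -5.27 and -2.92, and without Neuron library 2 they gave -3.19, -2.48, -2.45 and -10.70, with Cldn5 at -4.52. Acta2, a smooth muscle actin, gave -4.57 but -2.59 without control 3, where it stood at 94.0 CPM against 9.28 and 9.84 CPM in controls 1 and 2. Col1a1, a fibroblast collagen, did not pass (-1.23 ± 0.52, adjusted p = 0.0874, edgeR).

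Transcripts of the olfactory nerve layer were also lower, in 10 of 14 genes, against 15.7% of all genes. Omp, the marker protein of olfactory sensory neurons whose axons enter the bulb, stood at 309, 324 and 458 CPM in controls 1 to 3 and 56.2 and 97.8 CPM in Neuron libraries 1 and 2, a difference of -2.24 ± 0.56 (adjusted p = 0.0101, edgeR; 0.0739 without Neuron library 1). S100a5 and Fabp7, of sensory neurons and ensheathing glia, fell by 3.06 ± 0.37 and 2.76 ± 0.36. Frzb and Foxd3 did not pass (-0.79 and -0.51), and Foxd3 was under 2 CPM in all 5 libraries. Ngfr had no count in either Neuron library and was at least 30.2-fold lower, with a floor of 3 counts over the group. In the stem and ependymal list 12 of 15 genes fell, against 15.7% of all genes. Among them were Vim, Sox9 and Hes5, by 3.15, 2.41 and 2.11, while Sox2 was at 0.01 ± 0.38 (adjusted p = 0.992, edgeR). Without Neuron library 2, 6 of the 15 were lower. Mki67, a protein of dividing cells, stood at 2.35, 3.45 and 0 CPM in the controls and 0.082 and 0 CPM in the Neuron libraries, and its call as lower was lost without control 2, Neuron library 1 or Neuron library 2 (adjusted p from 0.0609 to 0.133, edgeR). Of 7 blood genes 1 fell (Alas2, not without Neuron library 2), near the 15.7% lower over all genes. The globin genes Hba-a1 and Hbb-bs did not pass (-2.05 and -2.0, adjusted p = 0.191 and 0.214, edgeR).

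Among genes with at least 20 CPM in the higher group and no overlap between groups, the 10 largest falls were, in order, Cpq, Fmod, Slco1a4, Gpc6, Tmprss5, Rftn2, Vsir, Nfe2l2, Chrdl1 and Acta2. Cpq, a plasma carboxypeptidase gene, stood at 34.8, 31.8 and 16.7 CPM in controls 1 to 3 and 0.656 and 0 CPM in Neuron libraries 1 and 2, a difference of -6.32 ± 0.71 (adjusted p = 5.36e-05, edgeR). Fmod (fibromodulin, an extracellular matrix protein) stood at 0.903 and 0 CPM in the Neuron libraries against 29.7, 44.2 and 28.0 CPM in the controls. Slco1a4, an organic anion transporter of brain endothelium, stood at 1.64 and 0 CPM against 65.9, 36.7 and 32.8 CPM. With so few counts in the Neuron libraries the fitted size moves with each of them: that of Cpq was -10.74 without Neuron library 1 and -5.36 without Neuron library 2, and those of Fmod and Slco1a4 were -11.03 and -11.44 without Neuron library 1. Nfe2l2, a transcription factor of the oxidative stress response, was highest in control 3, which held 381 CPM against 22.7 and 23.0 CPM. Its difference was -4.71, and without control 3 it was -2.08 (adjusted p = 0.016, edgeR).

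Under the same limits, the 10 largest rises were Esr1, Pcp4, Calb2, Penk, Scgn, Tac1, Synpr, Cdo1, Hist1h4d and Map2k1. Cdo1, which starts the oxidation of cysteine to taurine, stood at 25.9, 29.1 and 25.4 CPM in controls 1 to 3 and 121 and 124 CPM in Neuron libraries 1 and 2, a difference of 2.19 ± 0.24 (adjusted p = 4.5e-05, edgeR). Map2k1 (MEK1), the kinase that activates ERK, rose from 429.9, 505 and 209 CPM to 1605 and 1680.3 CPM (2.11 ± 0.30, adjusted p = 0.000271, edgeR). Hist1h4d encodes histone H4, as do many near-identical genes, so its value (2.11) is uncertain.

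Esr1, the gene of estrogen receptor alpha, led these rises. It stood at 0.523, 1.02 and 0 CPM in controls 1 to 3 and 58.3 and 53.8 CPM in Neuron libraries 1 and 2, a difference of 6.78 ± 0.90 (adjusted p = 0.000176, edgeR), with almost no signal in any control. The late neuroblast libraries held 71.7, 86.7 and 92.7 CPM. Without control 2, which held most of the few control counts, the difference was 7.78, and without control 3 it was 6.15. Inducible Cre recombinases of the CreER type are fusions with part of an estrogen receptor, and counts per gene do not separate such a transcript from Esr1 itself. With expected counts the difference was 5.01 (adjusted p = 0.00213, edgeR), and the raw counts were 139 and 133% of the expected counts in the Neuron libraries.

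The tagged gene itself differed little. Rpl22 stood at 33.3, 31.8 and 25.0 CPM in controls 1 to 3 and 34.0 and 46.5 CPM in Neuron libraries 1 and 2, with groups that did not overlap but a difference of 0.42 ± 0.26 that did not pass (adjusted p = 0.238, edgeR). Ribosomal protein mRNAs as a whole stayed near the median of all genes, which was -0.21. Where over all genes 11.6% were higher and 15.7% lower, 3 of 47 large-subunit genes rose and 7 fell (median -0.08). Of 32 small-subunit genes 3 rose and 3 fell (median -0.02). Rps26 fell the most, from 273, 334 and 344 CPM to 95.2 and 91.5 CPM (-1.76 ± 0.26, adjusted p = 0.000368, edgeR), and Rpl27 rose by 1.27 ± 0.28. Ribosomal protein genes have many processed copies in the genome, and how the counting split reads between them is not given in the sources used here. Control 3 was the highest control for 36 of the large-subunit genes and 23 of the small-subunit genes, and without it the large-subunit list had 3 rises, 4 falls and a median of 0.15. The balance also moved with the scaling: with library totals, 1 large-subunit gene rose and 13 fell, and 1 small-subunit gene rose and 4 fell. Without Neuron library 2, 1 large-subunit gene rose and 2 fell, and 0 small-subunit genes rose and 1 fell.

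Most genes of the list of nuclear and neuronal noncoding RNAs were lower: 10 of 11 fell, against 15.7% of all genes, with a median of -2.06; 0 rose in edgeR, at an unadjusted p under 0.05 and in DESeq2. Meg3, an imprinted noncoding RNA of neurons, stood at 2869, 2489.6 and 4994 CPM in controls 1 to 3 and 609.7 and 575 CPM in Neuron libraries 1 and 2, a difference of -2.54 ± 0.38 (adjusted p = 0.00039, edgeR). Snhg11 fell by 2.51 ± 0.41 and Neat1, the scaffold of nuclear paraspeckles, by 2.06. Malat1, the abundant RNA of nuclear speckles, stood at 6034, 5858 and 40319 CPM in the controls, with control 3 far above the others, and 3879.7 and 4838 CPM in the Neuron libraries. Without control 3, 7 of the 11 were lower and the median was -1.74. Without it Mirg (-2.15 with all controls) gave -0.99 and its call was lost (adjusted p = 0.214, edgeR), as it was without Neuron library 1 or Neuron library 2. Over all genes that RefSeq classes as long noncoding, 210 of 1275 tested (16.5%) were lower, near the 15.7% over all genes, and 23 (1.80%) were higher, against 11.6%. Their median difference was -0.97, and their share of all counts was 1.35 and 1.40% in the Neuron libraries against 2.46, 2.33 and 6.62% in the controls. Protein-coding genes took 94.9 and 94.8% against 91.8, 93.2 and 86.5%.

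Among protein-coding genes the difference was graded by genomic span. In the fifth of genes with the shortest span (median 4.69 kb) the median difference was 0.18 and 19.9% rose, and in the fifth with the longest span (median 141 kb) it was -0.31, with 8.64% higher and 20.1% lower. Spearman's correlation with the transcript length implied by the deposited tables was -0.0099 over 17396 genes of all classes, which are not independent replicates. The calls were graded by that length all the same. In the fifth with the shortest transcripts 15.9% were higher and 14.5% lower, and in the fifth with the longest 9.40% and 18.2%.

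By deposited TPM, a level per length, Calm2 and Pcp4 led the Neuron immunoprecipitate on average. Ranked by the mean of the deposited TPM over the libraries of a group, among tested genes whose symbols are not clone, predicted gene or pseudogene names, Calm2 ranked 1 in the Neuron libraries (8026 and 11567 TPM) and 8 in the controls. In Neuron library 1 alone Ckb was above it, at 8711 TPM. Pcp4 ranked 2, at 7412 and 9949 TPM against 1729, 2041 and 1699 TPM and rank 23 in the controls. The limit of its raw counts bears on this rank. They were 9.68 and 13.5% of its expected counts in the Neuron libraries, where the medians over genes were 58.5 and 59.1%. No ranking per length was made from raw counts. Calb2 moved from rank 228 to rank 15. The other leading genes, chosen here by rank, encode proteins of energy metabolism and the cytosol: Ckb, Gapdh, Aldoa, Atp5b and Ndufa4 rose by 1.26, 1.12, 1.43, 1.40 and 2.10 on the log2 scale of CPM. Malat1, rank 1 in the controls, was at rank 4.

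The enrichment in the Neuron immunoprecipitate was also tested against that of the neural stem cell immunoprecipitate over its own subventricular control, which shares no library with the bulb comparison. The enrichment differed upward for 807 genes (4.23%) and downward for 1392 (7.3%) in edgeR, and without Neuron library 2 for 509 and 1102. Without stem cell library 1, 496 differed upward. That of Pcp4, with the limit of its raw counts given above, was higher in Neuron by 4.38 ± 0.38 (adjusted p = 9.78e-06, edgeR). Its level was 116 ± 14.8 CPM (SD, n = 2) in the stem cell immunoprecipitate and 294 ± 15.1 CPM (SD, n = 3) in the subventricular control. Penk, at 1371 ± 113 and 2020.0 ± 534 CPM in the same groups, differed by 3.01 ± 0.42 (adjusted p = 0.000246, edgeR). Synpr and Gad1 differed by 2.52 and 2.11. The enrichment of Dcx was lower in Neuron, a difference of -1.65 ± 0.49 (adjusted p = 0.0393, edgeR), a call that was lost without control 1, control 2, Neuron library 1, Neuron library 2, stem cell library 2, or subventricular control 1 or 3 (adjusted p from 0.0622 to 0.193, edgeR).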

How the data were processed

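Per the labels, whole-bulb homogenates were immunoprecipitated with an anti-HA antibody and the RNA was made into full-length cDNA libraries. The protocol text of the Neuron libraries is that of cell sorting, so for them the immunoprecipitation was taken from titles and sample codes. The authors deposited raw counts per Ensembl gene (45195 genes, 44548 with a symbol). The tool behind these counts is not given in the sources used here. The authors also deposited expected counts and TPM; RSEM 1.2.21, Bowtie2 2.2.6 and the build GRCm38 are named per the submitters' processing notes, with no role stated. A further 92 entries of the TPM table carry no gene ID and were left out.

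Raw counts of the 15 immunoprecipitation libraries (9 with HA, 6 without) entered one fit with 6 groups in edgeR 4.0.16 (R 4.3.3): filterByExpr, TMM factors, glmQLFit and glmQLFTest, Benjamini-Hochberg adjustment over 19066 genes and a threshold of 0.05. All groups thus share one estimate of the spread. The SE of a log2 difference is its size divided by the square root of the F statistic. Means are given with SD. A bound on a fold uses a floor of 3 counts over the group and covers counting error only. Expected counts were rounded to whole numbers for one alternative. Gene coordinates come from RefSeq on GRCm38.p6. The 25 gene lists, the members and the naming rule were chosen with earlier results of these data known. The rule names Pcp4, Penk, Synpr, Rpl22 and Dcx, the 10 largest rises and falls with at least 20 CPM and no overlap between groups, up to 4 passing genes with the largest change per list, and the defining markers of each cell type.

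On simulated data for this comparison (18771 genes), the test recovered 6.48% of genes with a true log2 change of 1 and 66.3% with 2, and called 6 unchanged genes. Alternatives were RLE factors, library totals, no filter, DESeq2 1.42.0, the 5 libraries alone, expected counts, each of the 5 libraries left out, a replicate block, the second index as a term or held fixed, control 3 alone, no genes over ribosomal RNA and, added after seeing the data, offsets for transcript length and, for the contrasts that use them, each late neuroblast, stem cell and subventricular control library left out. Some genes that the rule names are not reported here.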

Additional observations from a re-analysis of the deposited data

Results flagged for a closer look

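The enrichment over the no-HA control differed between the Neuron immunoprecipitate and the neural stem cell immunoprecipitate, by a test of the difference itself in edgeR, for 807 genes upward and 1392 genes downward. Among the genes named for this comparison, the difference was 4.38 on the log2 scale for Pcp4, 3.01 for Penk and 2.52 for Synpr, all higher in Neuron. For Dcx it was -1.65, lower in Neuron. The Pcp4 value rests on raw counts, with the limit given above. Each immunoprecipitate was set against the control of its own tissue, so these differences also hold the difference between the bulb and subventricular controls.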

How the results depend on the processing

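Of the 5221 calls, 5132 (98.3%) were also made in the same direction by DESeq2 and 4160 with expected counts, where 5 had the opposite direction. Genes higher numbered 1331 with library totals and 592 with the 5 libraries alone, where genes lower numbered 1204. The 5 libraries alone shared 1763 (33.8%) of the calls in the same direction. That fit tested 17588 genes, the background for its 592 higher and 1204 lower. In it 6 bulb interneuron identity, 3 GABA synthesis and transport, 3 neuropeptide and 7 calcium signalling genes were higher. The main fit tested 31, 12, 23 and 23 genes of these lists. Also higher with the 5 libraries alone were 4 synapse genes, 1 neuroblast gene and 0 GABA and glycine receptor genes, of 43, 26 and 18 in the main fit. Lower were 15 astrocyte, 6 oligodendrocyte and 6 microglia genes, of 18, 15 and 12 in the main fit. Leaving out 1 of the 5 libraries gave 1075 to 2036 higher and 1518 to 2736 lower. Of the called genes, 42.5% were higher, against 35.8% with RLE factors, 26.8% with library totals, 33.6% with no filter, 33.0% with the 5 libraries alone, 34.4% in DESeq2 and 51.8% with offsets for transcript length, a setting chosen after seeing the data; the median over all genes was -0.21, and -0.30, -0.40, -0.28, -0.16, -0.30 and -0.05 in the same order. Neuron against late neuroblast immunoprecipitate (72 higher, 715 lower) was less firm: 118 higher with RLE factors, 154 and 1326 with no filter, 290 and 383 with the second index as a term, 113 higher with control 3 alone, 359 and 1396 in DESeq2, 198 higher with length offsets, and 6 to 211 higher and 341 to 1091 lower on leaving out 1 library of the 3 groups. The difference of the enrichments (807 and 1392) gave 496 to 919 and 1009 to 1768 on leaving out 1 library of the 4 groups. Leaving out late neuroblast, stem cell or subventricular control libraries was chosen after seeing the data.

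Signs turned for genes that had not passed, and for 3 that had. Cdhr1, Meis2 and Oprm1 gave -0.0506, -0.00619 and -0.0466 with library totals. Without Neuron library 1, Cdhr1, Oprl1 and Sox11 gave -0.16, -0.16 and 0.29; without Neuron library 2 Oprm1 gave -0.16, and without control 2 Sox11 gave 0.19. On leaving out 1 library, Oprl1 ranged from -0.16 to 0.96, Oprm1 from -0.16 to 0.47 and Sox11 from -0.50 to 0.29. With the second index as a term, Foxd3, Hbb-bs and Oprl1 gave 1.44, 0.22 and -0.0524, and Rpl22 against the late neuroblast immunoprecipitate gave 0.0174. Against control 3 alone, Foxd3, Hba-a1, Hbb-bs, Mki67, Oprl1 and Sox11 gave 1.11, 0.31, 1.18, 1.88, -0.00427 and 0.51. Between the 2 libraries that share a second index, Foxd3, Gpr17, Mki67, Sox11 and St8sia2 gave 1.11, 0.21, 0.41, 0.0324 and 0.00302. Against control 3 alone, 17 of the genes named by the rule lost their call, among them C1qa, Cx3cr1, P2ry12, Mog, Olig1, Gpr17, Doc2g, Glul, Grin3a, Gabrd and St8sia2. Sox11 gave 0.15 with length offsets. The causes were not tested. Nothing in the labels pairs the libraries, and same-numbered libraries did not deviate together (correlations -0.0129 and 0.0225). With the replicate block, 1752 genes were higher and 2307 lower, 40 and 610 against the late neuroblast immunoprecipitate, and 708 and 1222 for the difference of the enrichments. With 2 against 3 libraries, changes near a log2 size of 1 mostly went uncalled in simulated data. Few genes were changed there, so the adjusted threshold was stricter than here and the recovery does not carry over. Genes under 5 CPM rest on few counts.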

Other observations

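Total mRNA of sorted neurons from the same study, scaled separately and so read only within its own kind, held the same markers. Pcp4 stood at 186, 106 and 173 CPM in the 3 sorted Neuron libraries and at 10.3 ± 5.36 CPM (SD, n = 3) in sorted late neuroblasts. Penk stood at 102, 103 and 328 CPM against 7.23 ± 7.65 CPM. Synpr stood at 806, 1003 and 1348 CPM against 336 ± 164 CPM. Dcx stood at 210.3, 141 and 201 CPM against 1230.3 ± 334 CPM. Esr1, which led the rises in the immunoprecipitate, stood at 17.6, 17.3 and 11.4 CPM in sorted neurons. These are levels with no test.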
